A study of Mus musculus with 24 samples.

Results

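The genes described here are 10 genes of the type 1 helper T cell (Th1) axis with its IL-12 and IL-18 arms, namely Ifng, Tbx21, Stat4, Il12a, Il12b, Il12rb1, Il12rb2, Il18, Il18r1 and Il18rap. They were taken by symbol from a table of 16996 genes, and all 10 had a row. RNA was sequenced from CD45+ cells enriched with magnetic beads from EMT6-hHER2 tumors, which form from a murine breast cancer line after injection into the mammary fat pad of female BALB/c mice. The injected line is a single-cell-sorted clone that expresses human HER2, the target of trastuzumab. When tumors reached 80 mm3, mice stayed untreated or received 1 intravenous dose of an agent, and tumors were taken on day 10. The agents were the naked antibody trastuzumab at 20 mg/kg, the antibody-drug conjugate T-DM1, which carries the microtubule inhibitor DM1, at 15 mg/kg, and the conjugate T-PNU, which carries an anthracycline derivative, at 1 mg/kg. All mice were wild type and 10 to 12 weeks of age by their labels, each group held 6 mice, and each of the 24 libraries came from 1 mouse. The doses differ between agents, so a difference between 2 treated groups is a difference between agents at these doses. By the methods of the paper, T-PNU tumors were smaller than 80 mm3 when taken. In its efficacy experiments T-DM1 and trastuzumab did not prevent growth. Tumor volume at harvest is not in the labels, and its part in the differences between groups was not tested.

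The Th1 axis links antigen-presenting cells to lymphocytes that make interferon-γ. Myeloid cells secrete IL-12, a dimer of the products of Il12a and Il12b, and IL-18, which is cut from a precursor. Their receptors on T and NK cells signal through STAT4 and through MyD88, and with the transcription factor T-bet, the product of Tbx21, they drive transcription of Ifng.

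All values are log2 levels normalized for library size as the authors deposited them, so a difference of 1 is a 2-fold difference. Over the whole table they ran from 1.13 to 19.7. Counts were not used here, so the depth behind each level is unknown and no counting interval is given. Groups were compared with limma over all 16996 genes in all 24 samples, and a gene is said to have passed the test, to be higher or to be lower at a Benjamini-Hochberg adjusted p under 0.05. Each of the 3 comparisons with untreated mice uses the same 6 untreated samples. The column headings of untreated samples carry a separate series of numbers, whose meaning is not given in the sources used here, and whatever it marks and the absence of treatment cannot be told apart.

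A set of 4 samples stood apart from the rest of their own groups in markers of immune cells, and the heatmaps of the study leave them out. Untreated B1 and trastuzumab E2 and B3 had summed B cell marker levels of 13.1, 13.3 and 13.0, against medians of 10.6 and 10.2 in their groups. Untreated C1 had the highest summed NK cell marker level of all, 12.5, against a median of 10.9 in its group. The text gives results over 24 samples first and then over the 20 without these 4, a set whose expression was known when it was chosen. T-PNU samples H1 and C2 had summed B cell marker levels of 13.3 and 13.2, and they stayed in both sets. The smaller set thus drops such samples from the untreated and trastuzumab groups alone. Its differences between T-PNU and those groups rest on an uneven selection. Ptprc, which encodes CD45, had log2 levels between 14.0 and 15.5 in every sample. Markers of other cells were also present, with summed fibroblast marker levels between 14.4 and 17.1 and summed epithelial marker levels between 12.2 and 14.0.

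Promoter sequence is shown for Ifng, Il12rb2 and Tbx21, whose levels moved together. The sequences are the 250 bases before the start of each gene in RefSeq on GRCm38.p6, written along the strand of the gene, at chr10:118440796-118441045 (plus strand) for Ifng, chr6:67376189-67376438 (minus strand) for Il12rb2 and chr11:97115332-97115581 (minus strand) for Tbx21. Capitals mark matches to TTCNNNGAA, the palindromic GAS motif that STAT factors bind.
Ifng: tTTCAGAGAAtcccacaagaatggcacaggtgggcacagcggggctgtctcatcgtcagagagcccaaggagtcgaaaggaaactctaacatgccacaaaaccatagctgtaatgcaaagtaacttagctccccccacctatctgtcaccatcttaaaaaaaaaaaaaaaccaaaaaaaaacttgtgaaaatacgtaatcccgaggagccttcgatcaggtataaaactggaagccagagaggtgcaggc
Il12rb2: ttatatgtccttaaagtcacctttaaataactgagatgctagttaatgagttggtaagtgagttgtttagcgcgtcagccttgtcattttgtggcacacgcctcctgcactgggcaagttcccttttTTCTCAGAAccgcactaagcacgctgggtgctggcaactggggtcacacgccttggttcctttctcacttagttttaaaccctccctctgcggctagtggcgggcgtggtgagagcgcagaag
Tbx21: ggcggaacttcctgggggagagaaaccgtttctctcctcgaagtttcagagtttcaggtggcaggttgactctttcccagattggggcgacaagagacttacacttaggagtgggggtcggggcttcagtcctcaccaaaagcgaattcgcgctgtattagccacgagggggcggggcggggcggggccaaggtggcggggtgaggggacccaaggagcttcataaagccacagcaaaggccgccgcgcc

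The 9 members with an entry had 13 listed starts, and Il12rb1 had none. The GAS motif stood in 7.02% of the 32851 promoters of the table and in 3 member genes. In Ifng the match TTCAGAGAA began 249 bases before the start, and in Il12rb2 the match TTCTCAGAA began 123 bases before it. The third listed start of Il18r1 had both TTCTGGGAA and TTCCCAGAA, in a window that overlaps an annotated exon of Il18r1. The motif GGTGTGA on either strand, which T-box factors bind, stood in 3.33% of promoters and in no member window. The motifs were picked after the levels were known, and a match is a description of the letters only.

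Between T-PNU and T-DM1 tumors, 3 of the 10 genes differed over the 24 samples, all of them higher with T-PNU. These were Il12rb2, the signaling subunit of the IL-12 receptor, Tbx21 and Il18r1, the ligand-binding subunit of the IL-18 receptor, with rises of between 1.75-fold and 1.93-fold. No member was lower in that comparison, and both partner subunits, Il12rb1 and Il18rap, and all 3 cytokine subunit genes were among the 7 that did not pass. Over all genes 29.8% passed in that comparison, with 12.4% higher and 17.4% lower. Against untreated mice, none of the 10 passed over 24 samples, where 0.188% of all genes did, and 5 were higher over 20, where 31.1% of all genes passed and 15.3% were higher. In bulk RNA of this kind, fewer cells of a type and less RNA per cell cannot be told apart.

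**Figure D1:**
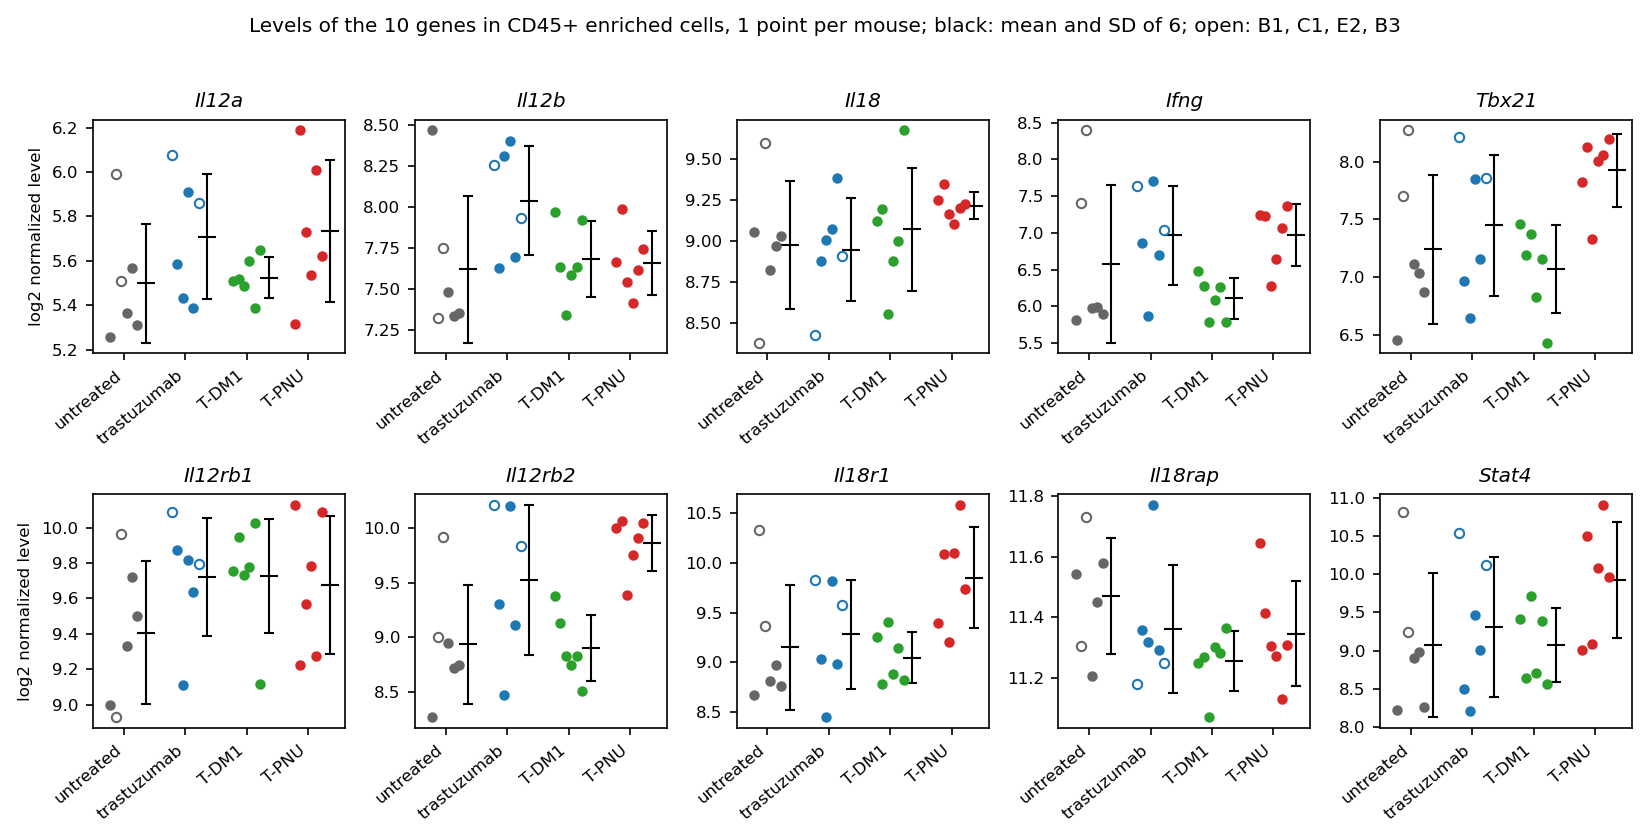
Log2 normalized level of each of the 10 genes (vertical axis, own range per panel) in the 4 groups (horizontal axis), with 1 point per mouse, the mean and SD of 6 mice in black, and open points for B1, C1, E2 and B3. The T-PNU points of Il12rb2 lie between 9.39 and 10.06, all above the T-DM1 points, while Il18rap lies between 11.07 and 11.77 in all 24 samples.

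The cytokine genes came first in the chain. Il12a (chr3:68690644-68698547, plus strand), which encodes the p35 subunit of IL-12, was the least abundant member per length, at a log2 level per kilobase of 4.85 (percentile 30.1 of all genes). Untreated A1 had the lowest level, 5.26, and T-PNU sample H1 the highest, 6.19, and group means lay between 5.50 and 5.73. The T-DM1 values were the most tightly grouped, with an SD of 0.091 against 0.27 to 0.32 in the other groups. Il12a did not pass in T-PNU against untreated mice (log2 fold change 0.23, 95% interval -0.07 to 0.54) or against T-DM1 (0.21, -0.09 to 0.51).

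Il12b (chr11:44400063-44414033, plus strand) encodes the p40 subunit, which IL-12 shares with IL-23. Its mean was highest in the trastuzumab group, at 8.04 ± 0.33 (SD, n = 6), against 7.62 ± 0.44 in untreated, 7.68 ± 0.23 in T-DM1 and 7.66 ± 0.19 in T-PNU mice. The untreated SD rested on A1, whose level of 8.47 was the highest of all 24, while the other 5 untreated mice lay between 7.33 and 7.75. T-PNU and T-DM1 levels overlapped over nearly their whole range. Between them the log2 fold change was -0.02 with a 95% interval from -0.38 to 0.34.

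Il18 (chr9:50554827-50581840, plus strand) had the highest level per length of the 10, a log2 level per kilobase of 9.01 (percentile 80.6 of all genes). The 6 T-PNU mice were almost alike, between 9.10 and 9.35 with an SD of 0.083, while the SD was 0.31 to 0.39 in the other groups. Untreated B1 at 8.38 and trastuzumab E2 at 8.43 were the lowest samples, and T-DM1 sample H3 at 9.68 was the highest. Il18 had a log2 fold change of T-PNU over untreated mice of 0.24 ± 0.17 (SE, adjusted p = 0.37 by limma) and over T-DM1 0.14 ± 0.17 (adjusted p = 0.53). Over the 20 samples all 6 T-PNU mice lay above the highest of the 4 untreated mice, 9.06, and the fit gave 0.25 with an adjusted p of 0.20 by limma.

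Of the receptor genes, Il12rb2 (chr6:67291318-67376188, minus strand) had the widest separation. Its product pairs with that of Il12rb1 and gives the IL-12 receptor its high affinity and its docking site for STAT4. The lowest, median and highest log2 levels were 9.39, 9.95 and 10.06 in T-PNU mice and 8.51, 8.83 and 9.38 in T-DM1 mice. They were 8.27, 8.85 and 9.92 in untreated mice and 8.47, 9.57 and 10.21 in trastuzumab mice. The T-PNU and T-DM1 groups did not overlap, although T-PNU sample A2 at 9.39 and T-DM1 sample C3 at 9.38 almost touched, and 5.45% of all genes were entirely above in that comparison. Untreated C1 and 3 trastuzumab mice reached the T-PNU range, of which E2 and H2 were above it.

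The log2 fold change of Il12rb2 in T-PNU over T-DM1 was 0.95 ± 0.26 (SE, adjusted p = 0.011 by limma), a 1.93-fold difference with a 95% interval from 1.33 to 2.81. It passed in each of the 24 fits that left out 1 sample. It was also the only member to pass the test over all 4 groups (adjusted p = 0.026 by limma, a test that 18.8% of genes passed). Against untreated mice its log2 fold change was 0.92 ± 0.26 with an adjusted p of 0.070 over 24 samples. Over 20 samples it was 1.18 ± 0.24 with an adjusted p of 0.0039. In order of mean the groups ran T-DM1 (8.91), untreated (8.94), trastuzumab (9.52) and T-PNU (9.86), and no pair of neighbours in that order passed the test.

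Il12rb1 (chr8:70808449-70821424, plus strand), the partner subunit that also serves the IL-23 receptor, had group means between 9.41 in untreated and 9.73 in T-DM1 mice. Its levels ran from 8.93 in untreated B1 to 10.13 in T-PNU sample G1. Among the 6 T-PNU mice H1 and C2 were the lowest and D2 and G1 the highest, so the order differed from that of Il12rb2. T-PNU over T-DM1 gave a log2 fold change of -0.05 (95% interval -0.46 to 0.36) and over untreated mice 0.27 (-0.14 to 0.68).

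Il18r1 (chr1:40465552-40500854, plus strand) binds IL-18, and Il18rap (chr1:40515362-40551705, plus strand) encodes the accessory subunit that the receptor needs to signal. The lowest, median and highest levels of Il18r1 were 9.20, 9.91 and 10.59 in T-PNU mice and 8.78, 9.01 and 9.40 in T-DM1 mice. They were 8.66, 8.89 and 10.34 in untreated mice and 8.44, 9.30 and 9.82 in trastuzumab mice. In T-PNU tumors, 4 mice were above every T-DM1 mouse, and A2 and G1 were within the T-DM1 range. Untreated B1 stood alone among its group at 10.34.

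Il18r1 was 1.75-fold higher in T-PNU than in T-DM1 mice (log2 fold change 0.81 ± 0.28, adjusted p = 0.032 by limma). It passed in 18 of the 24 fits that left out 1 sample, and had adjusted p between 0.056 and 0.086 without T-PNU sample H1, B2 or C2 or T-DM1 sample D3, F3 or H3. Over untreated mice its log2 fold change was 0.70 ± 0.28 with an adjusted p of 0.13 over 24 samples, and 1.05 ± 0.24 with an adjusted p of 0.0065 over 20. Over trastuzumab it was 0.57 ± 0.28 with an adjusted p of 0.25 over 24 samples, and 0.78 ± 0.24 with an adjusted p of 0.026 over 20.

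Il18rap behaved otherwise. It had the highest log2 level of the 10, between 11.07 and 11.77 over all 24 samples, and the smallest spread between mice. Its means were 11.47 in untreated, 11.36 in trastuzumab, 11.26 in T-DM1 and 11.35 in T-PNU mice. T-PNU over T-DM1 gave a log2 fold change of 0.09 with a 95% interval from -0.12 to 0.29, and over untreated mice it was -0.12 (-0.33 to 0.08). The 2 subunits of the IL-18 receptor had a Pearson r of -0.14 over the 24 samples.

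The gene next to Il18r1 on the same strand moved the other way. Il1rl1 (chr1:40429570-40465415, plus strand) encodes ST2, the receptor for IL-33 found on type 2 lymphocytes and mast cells, and the windows before the first and second listed starts of Il18r1 overlap its annotated exons. Its levels were between 12.54 and 14.34 in T-PNU and between 14.37 and 15.14 in T-DM1 mice, so those groups did not overlap, as for 7.73% of all genes in that direction. The log2 fold change of T-PNU over T-DM1 was -1.18 ± 0.29 (adjusted p = 0.0063 by limma), in a comparison in which Il18r1 rose by 0.81. Against untreated mice Il1rl1 had a log2 fold change of -0.59 with an adjusted p of 0.21. All 4 fibroblast markers were also lower in T-PNU than in T-DM1 mice, and their part in the fall of Il1rl1 was not tested.

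**Figure D2:**
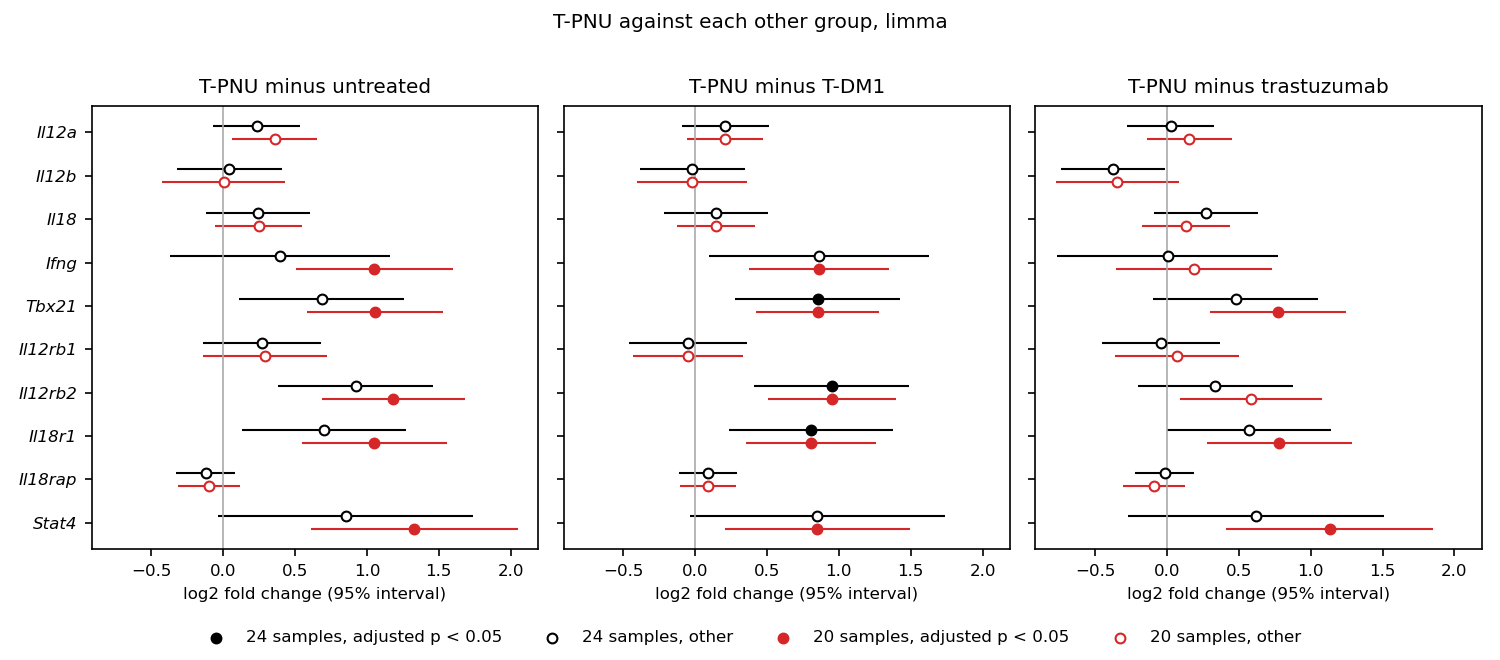
Log2 fold change with its 95% interval (horizontal axis) for each gene (vertical axis) in T-PNU minus untreated, T-PNU minus T-DM1 and T-PNU minus trastuzumab, over 24 samples (black) and 20 samples (red), with filled points for an adjusted p under 0.05. Filled black points occur in the T-DM1 panel alone, for Il12rb2, Tbx21 and Il18r1, and filled red points number 5, 5 and 3 across the panels.

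Downstream of the receptors, Stat4 (chr1:51987148-52107189, plus strand), the transcription factor that IL-12 activates, had the widest spread of the 10 within T-PNU mice. The lowest, median and highest levels were 9.01, 10.02 and 10.91 in T-PNU mice, 8.57, 9.05 and 9.72 in T-DM1 mice, 8.22, 8.95 and 10.81 in untreated mice and 8.21, 9.23 and 10.54 in trastuzumab mice. In T-PNU tumors G1 and A2 were low, and the other 4 were above every T-DM1 mouse. Untreated B1 and trastuzumab E2 and B3 were the highest of their groups.

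Stat4 was 1.80-fold of the T-DM1 level in T-PNU mice, with an interval from 0.97 to 3.34 and an adjusted p of 0.13 by limma, so it did not pass over 24 samples. The point estimate stayed at 0.85 on the log2 scale over 20 samples, since these groups lost no mouse, and the adjusted p became 0.035 with the smaller spread of that fit. Over untreated mice the log2 fold change was 0.85 ± 0.43 (adjusted p = 0.22) over 24 samples and 1.33 ± 0.35 (adjusted p = 0.011 by limma) over 20. In GENCODE M21 the gene overlaps Gm28177 on the same strand, and how reads in the shared part were assigned is not given in the sources used here.

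Tbx21 (chr11:97098071-97115331, minus strand), whose product T-bet is the factor that defines Th1 cells and is also used by NK and CD8 T cells, had lowest, median and highest levels of 7.33, 8.03 and 8.20 in T-PNU mice. They were 6.43, 7.17 and 7.46 in T-DM1 mice, 6.45, 7.07 and 8.27 in untreated mice and 6.64, 7.50 and 8.22 in trastuzumab mice. All T-PNU mice but A2 were above every T-DM1 mouse. Untreated C1 and trastuzumab E2 were the only samples of other groups above the highest T-PNU mouse.

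Tbx21 was 1.81-fold higher in T-PNU than in T-DM1 mice (log2 fold change 0.85 ± 0.28, adjusted p = 0.026 by limma), and it passed in 21 of the 24 fits that left out 1 sample. The adjusted p was 0.058 to 0.061 without T-PNU sample H1 or T-DM1 sample F3 or H3. The log2 fold change over untreated mice was 0.68 ± 0.28 with an adjusted p of 0.14, and 1.06 ± 0.23 with an adjusted p of 0.0050 over 20 samples. Over trastuzumab it was 0.48 ± 0.28 with an adjusted p of 0.33, and 0.77 ± 0.23 with an adjusted p of 0.022 over 20 samples. Neighbours in the order of means, T-DM1 (7.07), untreated (7.24), trastuzumab (7.45) and T-PNU (7.92), did not pass the test over 24 samples.

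Ifng (chr10:118441046-118445892, plus strand), the signature cytokine of Th1, CD8 T and NK cells, had lowest, median and highest levels of 5.81, 5.98 and 8.40 in untreated mice and 5.86, 6.95 and 7.70 in trastuzumab mice. They were 5.78, 6.18 and 6.48 in T-DM1 mice and 6.27, 7.15 and 7.36 in T-PNU mice. In the untreated group 4 mice lay between 5.81 and 5.99, while C1 at 8.40 was the highest of all 24 samples and B1 reached 7.40. In T-PNU tumors, 5 of 6 mice were above every T-DM1 mouse. In GENCODE M21, Ifng overlaps Gm49751 on the same strand.

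The log2 fold change of Ifng in T-PNU over T-DM1 was 0.86 ± 0.37 with an adjusted p of 0.080 over 24 samples and 0.0074 over 20, by limma. Over untreated mice it was 0.39 ± 0.37 with an adjusted p of 0.50. Over 20 samples, without B1 and C1, it was 1.05 ± 0.26 with an adjusted p of 0.0087. Over trastuzumab it was 0.00 with a 95% interval from -0.76 to 0.77. T-DM1 over untreated mice gave -0.47 ± 0.37 over 24 samples and 0.19 over 20, neither of which passed.

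In T-PNU against untreated mice, 0 of the 10 passed by limma over 24 samples, where 0.188% of all genes passed. Of the 10, 3 had an unadjusted p under 0.05, namely Il12rb2, Il18r1 and Tbx21, and the median log2 fold change was 0.33 against 0.01 over all genes. Over 20 samples 5 were higher and none lower, where 31.1% of genes passed and 15.3% were higher. With sample weights over all 24, 5 were higher, where 17.1% of genes were. The weights came from the same values and were 0.22 for B1 and 0.29 for C1, against 0.77 to 2.83 in the other untreated mice. Trastuzumab E2 had 0.38 and B3 0.72, and T-PNU sample C2 had 0.29. The weighted fit is thus not independent of the choice of 20 samples. Over the 20 samples, 6 members had all T-PNU mice above all 4 untreated mice, Il18 in addition to the 5, where 8.03% of all genes did.

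The other comparisons called no member over 24 samples. T-DM1 against untreated mice had 1 member at an unadjusted p under 0.05, Il18rap (log2 fold change -0.21), where 6.27% of genes passed by limma. Trastuzumab against untreated mice had 2, Il12b (0.42) and Il12rb2 (0.59), where 0.259% passed. T-PNU against trastuzumab had 2, Il18r1 (0.57) and Il12b (-0.38), where 0.00588% passed. T-DM1 against trastuzumab had 2, Ifng (-0.86) and Il12rb2 (-0.62), where 0.647% passed. Of these comparisons, only T-PNU against trastuzumab called members under another setting. In T-PNU against trastuzumab, Il18r1, Stat4 and Tbx21 were higher over 20 samples, where 28.0% of genes passed and 14.6% were higher, and Tbx21 was higher with sample weights, where 5.62% of genes were. In T-PNU against T-DM1 the median over the 10 was 0.51, against 0.03 over all genes, and over 20 samples 5 were higher, where 39.9% of genes passed and 19.8% were higher. With sample weights 5 were higher, where 21.9% of genes were.

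Some members varied together across the 24 samples, given here as a description with no test, since all points share the groups and the makeup of the tissue. Stat4 and Il18r1 had a Pearson r of 0.94 and a Spearman rho of 0.95, and r was 0.94 after group means were removed. Tbx21 and Il12rb2 had an r of 0.92 and a rho of 0.90, and 0.92 within groups. Ifng was closest to these latter genes, with an r of 0.85 with each, and less close to Stat4 at 0.59. The pairs did not form separate sets. Tbx21 had 0.81 with Stat4 and 0.83 with Il18r1, and Il12rb2 had 0.65 and 0.72 with them. Il12a had 0.77 with Stat4 and 0.74 with Il18r1. Il18, Il18rap, Il12b and Il12rb1 were less closely related to the rest. The highest r of Il12rb1 with another member was 0.50, with Il12rb2, and that of Il12b was 0.28.

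**Figure D3:**
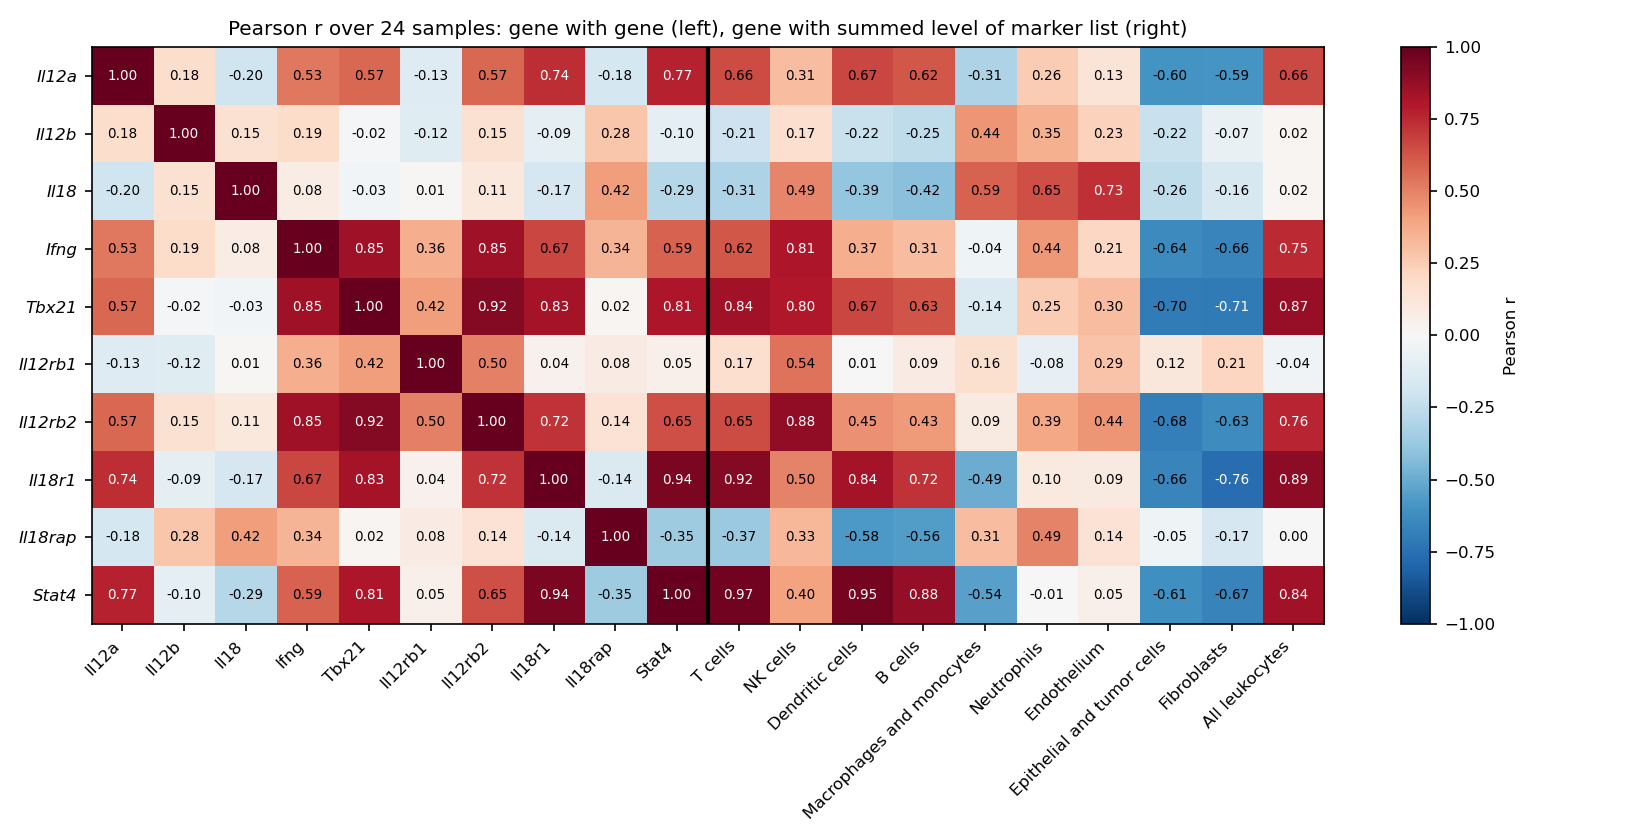
Pearson r over 24 samples between the 10 genes (left block) and between each gene and the summed level of 10 marker lists (right block), from -1 in blue to 1 in red. Stat4 and Il18r1 are dark at T cell markers, 0.97 and 0.92, and at dendritic cell markers, 0.95 and 0.84, while Il12rb2 and Ifng are darkest at NK cell markers, 0.88 and 0.81. Without the 2 samples farthest from the median of Ifng, Ifng had 0.72 with both NK cell and T cell markers. The dendritic cell sum is weighted to Ccr7 and the NK cell sum to Klrk1, and which cells carried these genes was not tested.

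Levels of cell type markers also differed between these groups. Beside the counts of markers that follow, 12.4% of all genes were higher and 17.4% lower in T-PNU against T-DM1. In T-PNU against T-DM1, Ptprc was higher (log2 fold change 0.76 ± 0.19, adjusted p = 0.0057 by limma), and 3 of 4 NK cell markers were higher, Ncr1, Klrb1c and Nkg7. The summed NK marker level was 11.43 to 12.11 in T-PNU and 10.85 to 11.44 in T-DM1 mice. Of 7 T cell markers, 0 passed by limma and 3 had an unadjusted p under 0.05, with a median of 0.96, and their summed level was 12.08 to 14.38 in T-PNU and 11.01 to 13.22 in T-DM1 mice. Of 6 dendritic cell markers 2 were higher, Clec9a and Xcr1, with summed levels of 11.7 to 14.8 and 11.9 to 13.7. All 4 fibroblast markers were lower, with a median of -1.47 and summed levels of 14.38 to 15.95 and 16.47 to 17.06. Of 3 B cell markers 0 passed by limma and 0 had an unadjusted p under 0.05, with a median of 1.00 and summed levels of 8.72 to 13.28 and 8.67 to 12.47. Of 4 epithelial markers Krt14 and Epcam were higher and Krt8 lower, with summed levels of 12.22 to 13.47 and 13.44 to 14.05. Adgre1 was higher of 5 macrophage and monocyte markers, Cdh5 of 2 endothelial markers and none of 4 neutrophil markers, of which 1 had an unadjusted p under 0.05. No marker was listed at 0, but neither was any other gene, since the lowest value of all was 1.13.

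A summed level is weighted to the most abundant genes of its list. Among dendritic cell markers Ccr7 had the highest mean log2 level, 12.6, and Batf3 the lowest, 5.32. Among NK cell markers Klrk1 had the highest, 10.7, and Klrb1c the lowest, 6.08. Which cells carried these genes was not tested. Across samples, Stat4 had an r of 0.97 with the summed T cell marker level, 0.95 with that of dendritic cells, 0.88 with that of B cells and 0.40 with that of NK cells. Il18r1 had 0.92, 0.84, 0.72 and 0.50 in the same order. Il12rb2 had 0.65 with the T cell level, 0.45 with the dendritic cell level, 0.43 with the B cell level and 0.88 with the NK level. Ifng had 0.62, 0.37, 0.31 and 0.81, and Tbx21 had 0.84, 0.67, 0.63 and 0.80. Without the 2 samples farthest from the median level of the gene, Ifng had 0.72, 0.59, 0.55 and 0.72 in that order. Il18r1 then had 0.88, 0.75, 0.66 and 0.73, while Il12rb2 had 0.67 with the T cell level and 0.89 with the NK level. The higher r of Ifng with NK than with T cell markers thus rested on those samples. Il18 had 0.73 with endothelial markers, 0.65 with neutrophil markers, 0.59 with macrophage and monocyte markers, 0.49 with NK cell markers and -0.31 with T cell markers. With the mean of Cd3d, Cd3e and Cd3g as a covariate, the log2 fold change of Stat4 in T-PNU over T-DM1 went from 0.85 to 0.09, Il18r1 from 0.81 to 0.35 (adjusted p = 0.052), Tbx21 from 0.85 to 0.44 (adjusted p = 0.073) and Ifng from 0.86 to 0.46 (adjusted p = 0.30), all by limma. Il12rb2 stayed past the threshold at 0.68 with an adjusted p of 0.033, in a fit where 10.2% of genes were higher. The Cd3 mean was measured after treatment in the same libraries. Stat4 also followed dendritic and B cell markers, so this fit cannot single out T cells. The part of the markers of NK, dendritic, B and the other cells in these results was not tested.

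**Figure D4:**
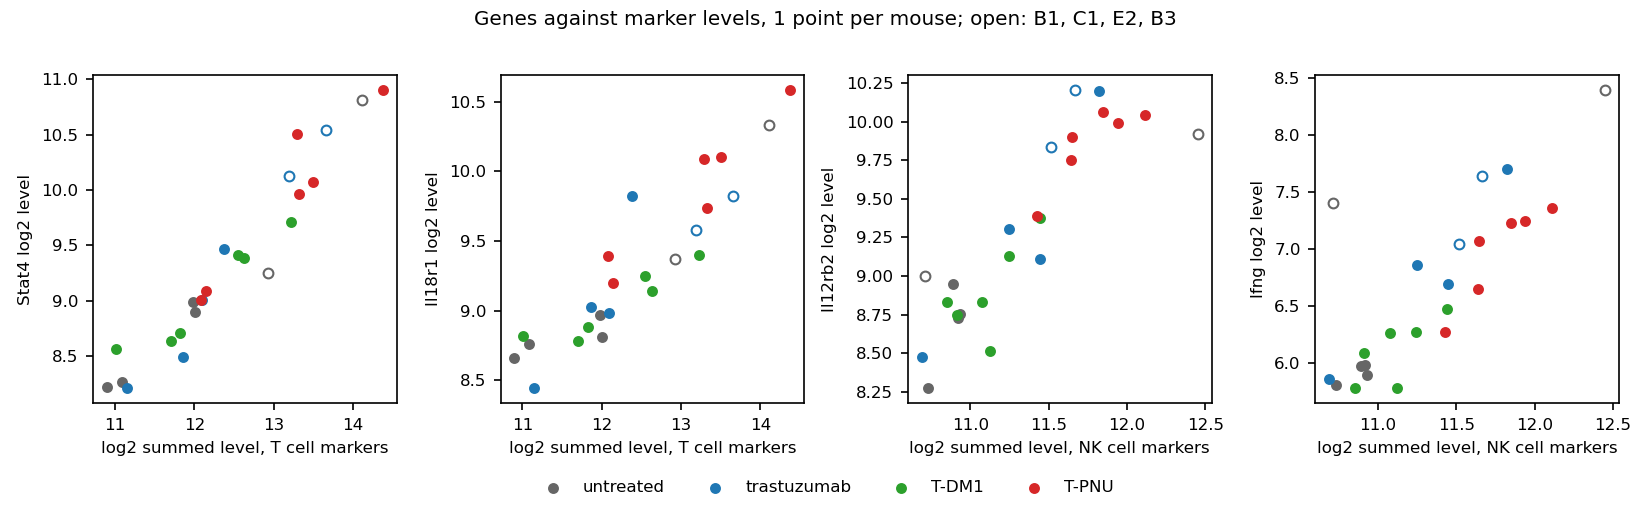
Log2 level of Stat4 and Il18r1 against the log2 summed level of 7 T cell markers, and of Il12rb2 and Ifng against that of 4 NK cell markers, with 1 point per mouse, colored by group, and open points for B1, C1, E2 and B3. Stat4 follows the T cell axis in all groups, while untreated B1 lies apart, with an Ifng level of 7.40 at an NK level of 10.7.

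Outside the 10, the genes whose levels were most like each member were taken over the 24 samples. For Tbx21 they were Eomes, Sytl2 and Fasl, with r between 0.97 and 0.98. Eomes is the sister T-box factor and Fasl a death ligand of cytotoxic cells. For Il12rb2 they were Ncald, Nkg7 and Klrb1c (0.94 to 0.95), and for Ifng Gm4070 and Cd160 (0.91 for each). Nkg7 is a granule protein of cytotoxic lymphocytes and Klrb1c the NK1.1 receptor. For Stat4 they were Gpr174, Crem and Il16 (0.98 to 0.99), and for Il18r1 Nrarp, Gpr174 and Rbl2 (0.96 for each).

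The cytokine and accessory genes had other neighbours. Il18 was most like Ms4a6d, Ifi202b and Ms4a4c (0.91 to 0.92), and Il12rb1 most like Rmdn3, Psmb9 and Selm (0.90 to 0.92), of which Psmb9 encodes an immunoproteasome subunit. Il18rap was most like Usp40, Opa1 and Gtpbp10 (0.84 to 0.85) and Il12a most like Ngfr, Serinc5 and Cds2 (0.83 to 0.84). Il12b had the weakest likeness of the 10, with Arl5c, Zbtb18 and Prdm1 at 0.74 to 0.76.

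The rest of the pathway was read from 4 lists. In the list of interferon-γ receptor, response and Th1-associated genes, 3 of 13 genes were higher in T-PNU than in T-DM1 mice and 0 lower, where 12.4% of all genes were higher and 17.4% lower. They were Irf1, an interferon-induced transcription factor (0.63 ± 0.16, adjusted p = 0.0081 by limma), the chemokine receptor Cxcr6 (0.92 ± 0.29, adjusted p = 0.021) and Eomes (0.68 ± 0.22, adjusted p = 0.025). The chemokine gene Cxcl9 had 0.39 with an adjusted p of 0.24, and the homeobox gene Hlx was the smallest of the list at -0.17. The median of the list was 0.37 against 0.03 over all genes.

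In the list of IL-18 maturation, antagonist and signaling genes, 4 of 12 were higher and 1 lower in T-PNU than in T-DM1 mice, beside 12.4% and 17.4% of all genes. Il18bp, the secreted antagonist of IL-18 and itself an interferon-γ target, was higher (0.67 ± 0.22, adjusted p = 0.030 by limma). The receptor-proximal genes Traf6 (0.22), Myd88 (0.22) and Irak4 (0.20) were higher by small amounts with adjusted p of 0.021, 0.036 and 0.028. Gadd45g, a stress-response gene that IL-12 and IL-18 induce in T cells, was lower (-0.79 ± 0.16, adjusted p = 0.0024), and it was higher in T-DM1 than in untreated mice (0.70 ± 0.16, adjusted p = 0.015). The median of the list was 0.21.

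In the list of IL-12 family and receptor signaling genes, 1 of 11 was higher in T-PNU than in T-DM1 mice, the kinase gene Jak2 (0.26 ± 0.09, adjusted p = 0.038 by limma). The IL-27 receptor gene Il27ra had the largest value, 0.73 with an adjusted p of 0.25, and the feedback inhibitor Socs3 the smallest, -0.10, while the IL-23 subunit gene Il23a had -0.06. Of 10 measured genes of other T helper lineages, 0 were higher and 1 was lower, Il1rl1. Neither list had a larger share called than all genes, of which 12.4% were higher and 17.4% lower. The type 2 regulator Gata3 had the largest value of that list, 0.69 with an adjusted p of 0.10.

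**Figure D5:**
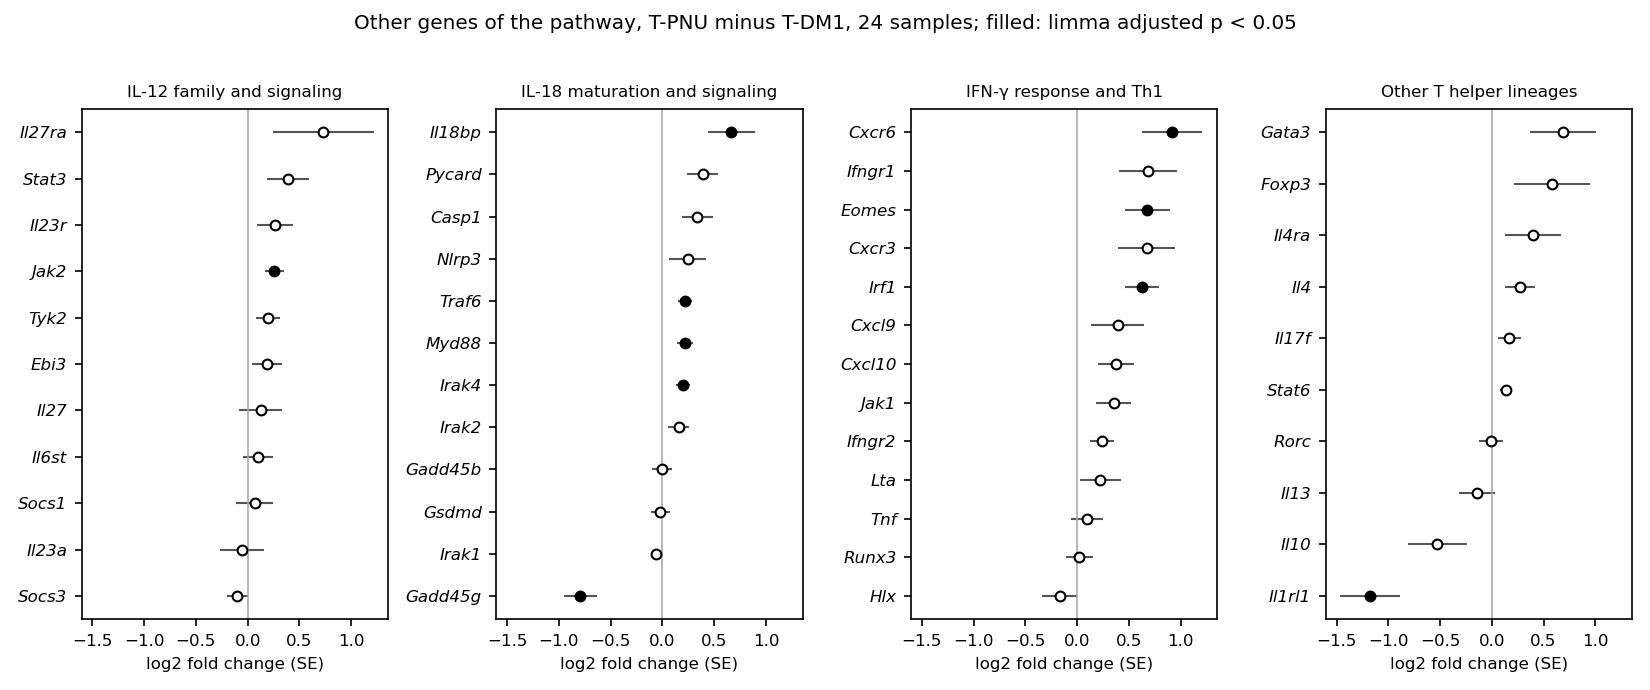
Log2 fold change with its SE (horizontal axis) of the other genes of the pathway (vertical axis, ordered by value) in T-PNU minus T-DM1 over 24 samples, in 4 lists, with filled points for an adjusted p under 0.05. Filled points number 1, 5, 3 and 1 from left to right, and those of Gadd45g and Il1rl1 lie below 0, at -0.79 and -1.18.

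For T-PNU against untreated mice, 0 genes of the 4 lists passed by limma over 24 samples, where 0.188% of all genes did. The IL-12, IL-18, interferon-γ and other-lineage lists had 5, 2, 4 and 3 genes at an unadjusted p under 0.05. Il27ra (0.97), Il18bp (0.78), Cxcr6 (0.88) and Gata3 (0.96) had the largest values of their lists, and Il23a (-0.02), Gadd45g (-0.09), Cxcl9 (-0.13) and Il1rl1 (-0.59) the smallest. Over 20 samples 7 of 11, 3 of 12, 7 of 13 and 3 of 10 were higher in the same order, and 1 gene of other lineages was lower, in a fit where 15.3% of all genes were higher and 31.1% passed. In that last list, named here after the values were seen, the higher genes were Gata3, the regulatory T cell factor Foxp3 and the IL-4 receptor gene Il4ra, and the lower one was Il1rl1.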

How the data were processed

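CD45+ cells were enriched from 24 tumors of 4 groups of 6 mice, and 1 stranded mRNA library per mouse was sequenced. Per the methods and the submitters' processing notes, the authors aligned reads with STAR 2.4.2a to mm10, checked quality with Picard, counted reads per gene on the reverse strand with featureCounts (Subread 1.5.0), removed genes averaging under 5 counts and compared groups with DESeq2. The deposited values are log2 levels normalized for library size by the authors. The transformation is not named in the sources used here, and if it shrinks low genes, fold changes taken from it are smaller than those from counts. No counts were used here, so depth is unknown and the 6 mice of a group set the precision.

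From these values, a linear model was fitted (limma 3.58.1, R 4.3.3, with lmFit and contrasts.fit, and eBayes with a trend) to all 16996 genes and 24 samples with no covariate, leaving 20 residual degrees of freedom, and p-values were adjusted over all genes by the Benjamini-Hochberg method within each of 6 comparisons between pairs of groups and in a moderated F test. Samples were grouped by the agent in their labels, and replicate numbers follow accession order and pair nothing. The most alike samples differed by 0.14 log2 units on average over genes, so no library was counted as deposited more than once. The members, lists and tests were chosen with earlier results of these data known. Named genes are the 10 members, in each list the largest and smallest change in T-PNU against untreated and T-DM1 mice and those past the threshold, up to 6 a list, and the 3 genes most correlated with each member, apart from items not reported here, which were also left out of the list counts and medians. A summed level is the log2 of the sum of the linear levels of a list. Levels per kilobase use merged exon length. GENCODE M21 (GRCm38) held 99.6% of the identifiers and gave positions, and promoters came from RefSeq. Alternatives were 20 samples, quantile normalization, the 8498 genes above the median level, fits of 2 groups, sample weights, no trend, a false discovery rate of 0.01 with a fold change above 2, a Cd3 covariate and each sample left out. The fits were tested on simulated data. The plots used matplotlib 3.10.9 under Python 3.11.15. Other assays of the study were not used here.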

Additional observations from a re-analysis of the deposited data

Results flagged for a closer look

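In groups of 6, 3 of 40 sets of member values had a sample whose gap to its nearest neighbour was over 0.625 of the range, a limit that chance passes in about 1 in 20 sets. Il12b in untreated A1 was 8.47, and the other 5 untreated mice lay between 7.33 and 7.75. Il12rb1 in T-DM1 sample H3 was 9.12, below the other 5 at 9.73 to 10.03. Il18rap in trastuzumab sample H2 was 11.77, above the other 5 at 11.18 to 11.36.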

How the results depend on the processing

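The count of members passing in T-PNU against T-DM1 was 3 over 24 samples, where 12.4% of all genes were higher. It became 5 over 20 samples, where 19.8% of genes were higher, and 5 with sample weights, where 21.9% were. The count was 0 at a false discovery rate of 0.01 with a fold change above 2. With the Cd3 covariate it was 1 (Il12rb2), where 10.2% of genes were higher. It was 1 to 4 when 1 sample was left out, 1 without T-PNU sample H1 or T-DM1 sample F3 or H3 (Il12rb2 in each), 2 without T-PNU sample B2 or C2 or T-DM1 sample D3 (Il12rb2 and Tbx21) and 4 without untreated C1, when Ifng joined. In T-PNU against untreated mice the count was 0 over 24 samples, where 0.188% of all genes passed. It became 5 over 20 samples, where 15.3% of genes were higher, and 5 with sample weights, where 17.1% were. With 1 sample left out it was 0 to 2. The 2 came without untreated C1, with Il12rb2 at a log2 fold change of 1.12 (adjusted p = 0.0071 by limma) and Tbx21 at 0.89 (adjusted p = 0.025). T-PNU against trastuzumab gave 3 over 20 samples and 1 with sample weights, and the test over 4 groups gave 5, 5, 0 with the Cd3 covariate and 0 to 3 with 1 sample left out, 0 without T-PNU sample H1 or T-DM1 sample F3, 3 without untreated C1 and 2 without untreated A1 or B1. Of all genes, 14.6% were higher in T-PNU against trastuzumab over 20 samples and 5.62% with sample weights. The test over 4 groups passed 18.8% of genes over 24 samples. For the other counts here the share over all genes is not given. The cause of these moves in the counts was not tested, beyond the loss of samples itself.

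Values that turned sign were all short of the threshold. They were Ifng in T-PNU against untreated mice (-0.011 with the Cd3 covariate), in T-DM1 against untreated mice (0.19 over 20 samples, 0.12 with sample weights) and in T-PNU against trastuzumab (-0.018 with quantile normalization, -0.29 with the Cd3 covariate), Il12b in T-PNU against T-DM1 (0.017 with quantile normalization, 0.059 with the Cd3 covariate) and Il12rb1 in the same comparison (0.0035 with sample weights). With 1 sample left out, the sign also turned within the ranges -0.023 to 0.21 for Il12b against untreated mice, -0.088 to 0.038 for Il12b and -0.17 to 0.041 for Il12rb1 against T-DM1, and -0.22 to 0.15 for Ifng against trastuzumab. With genes below the median level left out, 6 of the 10 members were tested. No paired analysis was possible because the labels give no replicate numbers shared between groups. Depth could not be read from log2 values, so no limit on low levels is given, and the level of a gene in single cells is not measured in bulk RNA.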
